A study of Mus musculus with 3 samples.

Results

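Ovochymase 2 (Ovch2) and 9 genes listed with it for the maturation of ADAM3 on mouse sperm were examined in the deposited expression table. The table holds 24346 genes. The 10 genes were taken by symbol from a fixed list, and all 10 had a row. RNA was sequenced from the proximal epididymis (labelled IS-caput, initial segment and caput) of mice of the genotype Ovch2-/- that were 14 weeks old and had no treatment. There was 1 group, of 3 libraries, which are called replicates 1, 2 and 3 after their titles. The allele was not described in the sources used here. No library of another genotype was analysed here, so every value below is a level in tissue labelled as knockout and none is a difference from wild type. Whether each library stands for another animal is not said, so the spread between these samples may be technical. The p-values below come from exact sign-flip tests and cover these samples only. They reflect that the libraries shared a direction, and not how far the values spread.

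ADAM3 is a membrane protein that mouse sperm need to pass from the uterus into the oviduct and to bind the egg coat. It is made in the testis as a precursor and folded there in the endoplasmic reticulum, with the germ cell chaperones calmegin (Clgn), calreticulin 3 (Calr3) and PDILT, and with the partner protein ADAM2. Its surface form is then cut by a protease during passage through the epididymis, and in mice that lack OVCH2, a protease secreted by the initial segment, that cut fails. Mice that lack the tyrosylprotein sulfotransferase TPST2, the testis form of angiotensin-converting enzyme (ACE) or the testis protease-like protein PRSS37 also make sperm with missing or misplaced ADAM3. No role of TPST1, the relative of TPST2, in ADAM3 maturation is claimed here. By this background the members fall into 4 genes with a known place in epididymal tissue (Ovch2, Tpst1, Tpst2 and Ace) and 6 germ cell genes whose RNA can enter the duct with sperm (Adam2, Adam3, Calr3, Clgn, Pdilt and Prss37). Germ cells transcribe Tpst2 and Ace too, so their place in the first group is not exclusive.

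Values are FPKM, fragments divided by transcript length and by library total. The spacing of low values put the depth at about 14200000, 11700000 and 10200000 fragments in replicates 1, 2 and 3. The 8 epididymal epithelium markers were all at or above 1 FPKM in every library, with sums between 49764 and 64152 FPKM, to which Gpx5 and Lcn5 gave most in replicate 1. Lcn8, Crisp1 and Lcn5 differed far more between libraries than the sums, and their values are given at the end. Replicate 1 stood apart from the others. A gene is called set apart in a library where its FPKM + 1 was lower, or higher, than in each other library by 2-fold or more, and only genes averaging 1 FPKM or more were counted. Of 13073 such genes, 4.07% were set apart below and 1.29% above in replicate 1. Of all 24346 genes, 7211 (29.6%) were lowest in replicate 1, 5694 in replicate 2 and 4621 in replicate 3. The rest had no single lowest library, so the share among genes that had one was higher than 29.6%. The 29.6% set beside counts below is therefore a low yardstick for lists whose genes mostly had a single lowest library.

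The windows around the annotated starts are shown for the 3 members set apart in replicate 1 and for a germ cell member that did not follow the sperm markers. They are RefSeq windows of GRCm38.p6, the mm10 assembly, from 250 bases before to 50 bases after the start, written 5′ to 3′ on the gene's strand. Windows were found for 7 of the 10 members. In the Ovch2 window the capitals mark AGGAAG, the PEA3 motif bound by ETS factors. In the Tpst2 window and the first Ace window they mark the GC box GGGCGG or its reverse complement. In the second Ace window and the Calr3 window they mark TGAGGTCA, a variant of the cyclic AMP response element.
Ovch2 (chr7:107801130-107801429, minus strand): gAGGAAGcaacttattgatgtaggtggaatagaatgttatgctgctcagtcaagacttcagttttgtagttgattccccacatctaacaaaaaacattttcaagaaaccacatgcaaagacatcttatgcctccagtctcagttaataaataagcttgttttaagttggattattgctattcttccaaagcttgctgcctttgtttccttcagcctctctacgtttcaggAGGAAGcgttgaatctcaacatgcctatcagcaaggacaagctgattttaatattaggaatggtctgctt
Tpst2, first start (chr5:112276495-112276794, plus strand): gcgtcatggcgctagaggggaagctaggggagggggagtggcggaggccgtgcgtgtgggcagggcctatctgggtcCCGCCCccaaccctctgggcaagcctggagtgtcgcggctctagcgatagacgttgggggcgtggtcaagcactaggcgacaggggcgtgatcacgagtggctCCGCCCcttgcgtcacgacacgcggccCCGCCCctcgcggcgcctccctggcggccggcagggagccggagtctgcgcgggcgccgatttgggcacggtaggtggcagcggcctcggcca
Ace, somatic start (chr11:105967698-105967997, plus strand): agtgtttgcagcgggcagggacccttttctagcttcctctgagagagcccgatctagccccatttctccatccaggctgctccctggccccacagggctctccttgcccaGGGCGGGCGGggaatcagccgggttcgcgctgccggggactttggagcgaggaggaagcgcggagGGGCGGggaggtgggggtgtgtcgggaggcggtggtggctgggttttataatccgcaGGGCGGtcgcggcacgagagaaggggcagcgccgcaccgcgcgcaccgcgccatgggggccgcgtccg
Ace, germ cell start (chr11:105974939-105975238, plus strand): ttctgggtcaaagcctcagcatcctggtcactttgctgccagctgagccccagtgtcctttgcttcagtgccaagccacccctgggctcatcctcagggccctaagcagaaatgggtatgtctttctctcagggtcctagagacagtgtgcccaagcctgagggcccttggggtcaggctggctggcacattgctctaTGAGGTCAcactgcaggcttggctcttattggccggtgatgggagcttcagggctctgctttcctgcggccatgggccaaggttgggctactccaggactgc
Calr3, first start (chr8:72443729-72444028, minus strand): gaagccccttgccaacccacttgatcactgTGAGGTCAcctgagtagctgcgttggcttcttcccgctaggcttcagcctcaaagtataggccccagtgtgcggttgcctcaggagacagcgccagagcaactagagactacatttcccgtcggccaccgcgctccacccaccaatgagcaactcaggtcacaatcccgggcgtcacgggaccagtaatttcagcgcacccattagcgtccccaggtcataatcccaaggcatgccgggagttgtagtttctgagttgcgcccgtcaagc
The Ovch2 window was 38.3% G and C with 2 CpG dinucleotides, against a median of 52.7% G and C over 32851 windows of 300 bases. It held 2 PEA3 motifs, which began 249 and 20 bases before the start. At least 1 PEA3 motif on either strand was found in 35.4% of all windows and at least 2 in 8.62%. The somatic Ace window held 2 as well, left in lower case, which began 218 and 88 bases before the start. The windows of the first start of Tpst1, of the second start of Tpst2 and of Pdilt held 1 each. The first Tpst2 window was 72.3% G and C with 33 CpG dinucleotides and held 3 GC boxes and no PEA3 motif. At least 1 GC box was found in 35.7% of all windows and at least 2 in 19.5%. The somatic Ace window held 4, counting overlapping ones. The CRE-like motif was found in 2.17% of all windows. Among the 12 member windows it occurred 52 bases before the germ cell start of Ace and 220 bases before the first start of Calr3. A match describes letters and does not show a bound site.

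Ovch2 (NCBI gene 244199) lies on mm10 chromosome 7 from 107781544 to 107801179, and GENCODE gives it 1 transcript of 16 exons and 1953 bases. In the libraries labelled Ovch2-/- it stood at 4.50, 80.2 and 77.2 FPKM in replicates 1, 2 and 3. Replicates 2 and 3 were close to each other and 17.8-fold and 17.1-fold above replicate 1, which alone sets the spread of 54.0 ± 42.9 FPKM (SD, n = 3). Without replicate 1 the mean was 78.7 FPKM. Ovch2 ranked above 61.5%, 95.6% and 95.1% of all genes in the 3 libraries. About 125 fragments lay behind the value in replicate 1, so the gene was read there too. A value per gene does not tell which exons were read, and these levels are no check of the genotype.

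Tpst1 and Tpst2 encode the Golgi enzymes that move sulfate onto tyrosines of secreted and membrane proteins. Tpst2 (chromosome 5 from 112276682 to 112315356) stood at 128, 424 and 433 FPKM in replicates 1, 2 and 3. It was low in replicate 1 and nearly level in the others, which were 3.30-fold and 3.37-fold higher. Tpst1 (chromosome 5 from 130073326 to 130135734) stood at 10.2, 9.04 and 7.23 FPKM, or 8.82 ± 1.48 FPKM (SD, n = 3). Its libraries differed by at most 1.41-fold, with replicate 1 the highest, so the sulfotransferase genes did not share a pattern. Tpst2 exceeded Tpst1 12.6-fold, 46.9-fold and 59.9-fold in the 3 libraries. The difference was 4.89 ± 1.18 on the log2(FPKM + 1) scale (SD, n = 3; two-sided exact sign-flip test, p = 0.25, the smallest that 3 libraries allow).

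Sulfotransferases draw on an activated sulfate donor, and its supply genes differed less between libraries than Tpst2 did. Of the 6 genes listed for donor synthesis, Golgi transport and recycling, all averaged 1 FPKM or more. None was set apart in replicate 1, where 4.07% of genes were so below and 1.29% above. Of the 6, 5 were lowest there, against 29.6% of all genes. Papss1, a donor synthase gene, was highest at 67.1, 69.2 and 75.5 FPKM. Papss2, its relative, was lowest at 1.50, 1.77 and 1.92 FPKM. Both were lowest in replicate 1, by far less than Tpst2 was. Bpnt2, which encodes a Golgi phosphatase that breaks down the spent donor, varied most at 3.84, 6.82 and 5.11 FPKM. Replicate 1 minus the mean of the other libraries had a median of -0.16 over the 6 genes on the log2(FPKM + 1) scale, beside 0 over all genes.

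Ace encodes a dipeptidyl carboxypeptidase with a long somatic form and a short form made in male germ cells from a start inside the gene. On chromosome 11 from 105967948 to 105989964, GENCODE places a transcript of 25 exons and 4906 bases that begins at 105967945 and one of 14 exons and 2418 bases that begins at 105975208. Ace stood at 454, 140 and 215 FPKM in replicates 1, 2 and 3. It ran opposite to Ovch2 and Tpst2: replicate 1 was 3.25-fold above replicate 2 and 2.11-fold above replicate 3, and replicate 3 was 1.54-fold above replicate 2. Without replicate 1 the mean of Ace was 177 FPKM, against 269 FPKM with it. The value per gene joins both forms, and exons of the antisense gene Gm11651 (1.05, 0.226 and 0.950 FPKM) overlap those of Ace. The strand setting of the quantification is unknown, so reads of the pair cannot be told apart.

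Markers of other cell types in the tissue moved in different directions. All 7 endothelial markers were lowest in replicate 1, with sums of 24.1, 58.4 and 38.4 FPKM, against 29.6% of all genes that were lowest there. Emcn, an endothelial sialomucin gene, stood at 4.49, 15.8 and 10.8 FPKM and had the highest mean. Tek, a receptor gene, had the lowest, at 0.748, 2.13 and 1.43 FPKM. Ace was highest in replicate 1, the library with the lowest endothelial sum. The 16 germ cell markers, which are given below, were also lowest in sum in replicate 1. Among the 5 clear cell markers, 4 averaged 1 FPKM or more, and 3 of these were set apart above in replicate 1, against 1.29% of genes. They were Foxi1 (84.4, 33.4 and 37.3 FPKM), Atp6v1b1 and Atp6v1g3. The list summed to 161, 98.7 and 89.5 FPKM. Atp6v0d2, a proton pump subunit gene on that list, went the other way, being lowest in replicate 1 at 25.9, 41.1 and 29.5 FPKM. Slc4a9, a transporter gene, stood at 0.139, 0.114 and 0.130 FPKM. The part of endothelial, germ or clear cells in the Ace level was not tested. In bulk tissue, fewer cells of a type and less RNA per cell cannot be told apart.

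**Figure D1:**
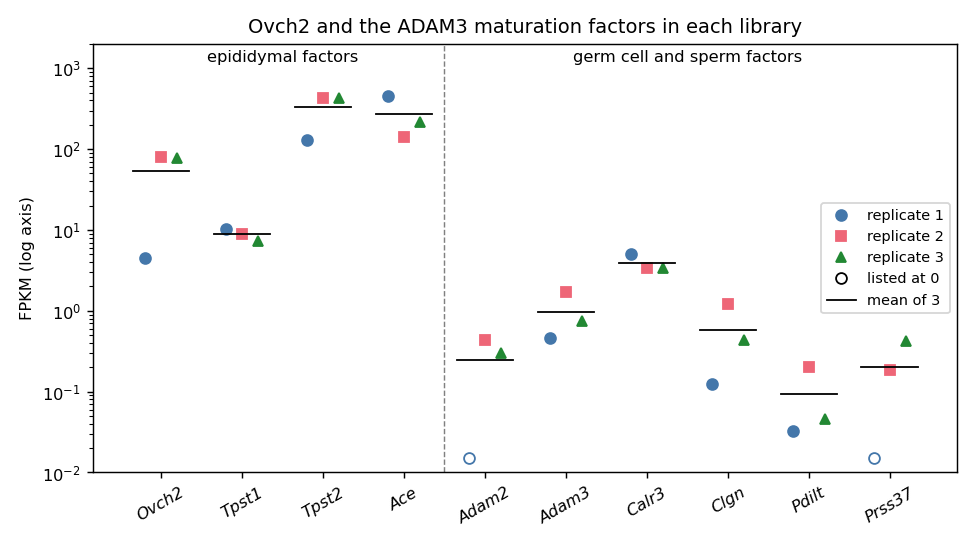
FPKM of the 10 genes on a log axis in each of 3 libraries (points) with the mean of 3 (bar), and with open points at the base for values listed at 0. Ovch2 and Tpst2 sit low in replicate 1 and Ace sits high there, while Calr3 is the germ cell gene of highest level and Adam2 and Prss37 are listed at 0 in replicate 1.

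Of the 10 members, 5 averaged 1 FPKM or more (the 4 epididymal factors and Calr3). Among these 5, Ovch2 and Tpst2 were set apart below in replicate 1, against 4.07% of genes, and Ace was set apart above, against 1.29%. None was set apart in replicate 2 or 3, where 0.757% and 0.153% of genes were so below and 0.237% and 0.314% above. With replicate 1 left out, none of these 5 differed 2-fold between the remaining libraries. Of the members of lower level, Adam3, Clgn, Pdilt and Prss37 differed over 2-fold in FPKM between replicates 2 and 3. Pdilt rested on few fragments there, about 5.07 and 1.01, as did Prss37, on about 2.28 and 4.54. Adam3 rested on more, about 55.0 and 20.9, and Clgn on about 55.0 and 17.1. In order of mean level, Tpst2 (328 ± 173 FPKM) and Ace (269 ± 164 FPKM, both SD, n = 3) did not differ beyond their spread and changed places. Ace was 3.54-fold above Tpst2 in replicate 1, and 0.330 and 0.496 of it in replicates 2 and 3. Ovch2 came next and was below Tpst1 and Calr3 in replicate 1 but above both in the others. Tpst1 and then Calr3 followed, and their values did not overlap. Adam3 (0.973 ± 0.656 FPKM) and Clgn (0.586 ± 0.556 FPKM, both SD, n = 3) did not differ beyond their spread, although Adam3 was the higher in each library. Adam2 and Prss37 changed places between replicates 2 and 3, and Pdilt had the lowest mean.

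The genes of nearest profile were sought among 9183 genes averaging 5 FPKM or more and with a span of at least 200 bases. Likeness was the Euclidean distance between deviations of log2(FPKM + 1) from the mean of 3 libraries. For Ovch2 the nearest were Shc4, an adaptor protein gene (0.622, 23.1 and 23.8 FPKM, distance 0.0809), St6galnac2, a sialyltransferase gene (8.71, 125 and 128 FPKM, distance 0.132) and Litaf (10.2, 151 and 136 FPKM, distance 0.153). Each was low in replicate 1 and nearly level in the others, as Ovch2 was. For Tpst2 they were Nudt4, a nudix hydrolase gene (19.6, 67.6 and 69.7 FPKM, distance 0.0214), Pnp, a purine salvage enzyme gene (13.4, 45.0 and 47.2 FPKM) and Gmnn, the gene of the replication inhibitor geminin (2.17, 9.77 and 9.79 FPKM). For Ace they were Galnt14, which encodes an enzyme that starts O-linked glycans (21.2, 5.79 and 9.19 FPKM, distance 0.0331), Gal3st4, a sugar sulfotransferase gene (68.7, 21.2 and 33.8 FPKM), and the uncharacterised 4930426D05Rik (32.5, 9.82 and 14.8 FPKM). Within a distance of 0.25 there were 9 genes for Ovch2, 45 for Tpst2 and 40 for Ace. With 3 libraries many genes share a profile, and likeness here describes these libraries alone.

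**Figure D2:**
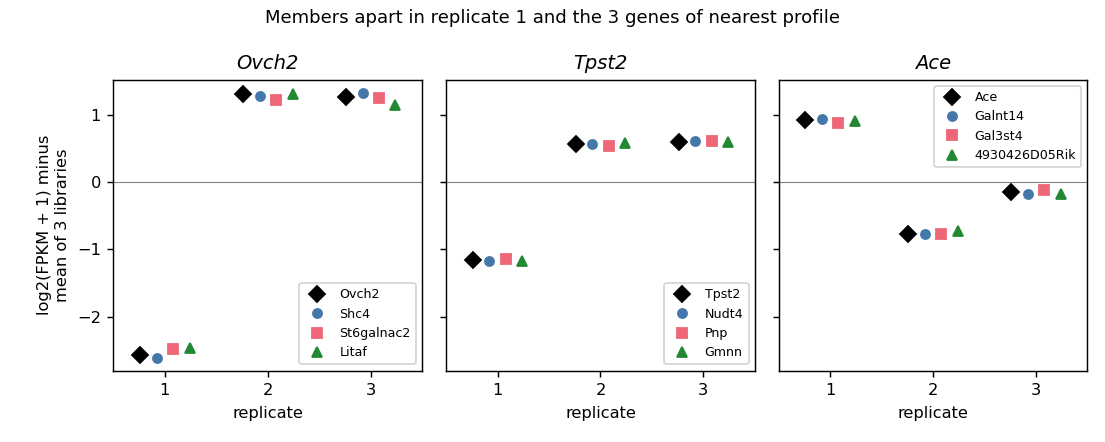
Deviation of log2(FPKM + 1) from the mean of 3 libraries for Ovch2, Tpst2 and Ace (diamonds) and for the 3 genes of nearest profile to each (other symbols), by replicate. The genes near Ovch2 and Tpst2 lie below 0 in replicate 1 and above it in the others, and those near Ace lie above 0 in replicate 1 only.

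By median, the 6 germ cell members were scarce next to the epididymal factors. Their median was 0.11, 0.83 and 0.51 on the log2(FPKM + 1) scale in the 3 libraries, against 5.25, 6.74 and 7.02 for the 4 epididymal factors and 1.26, 1.33 and 1.32 over all genes. The difference was 5.85 ± 0.68 (SD, n = 3; two-sided exact sign-flip test, p = 0.25, the smallest possible). The epididymal median was higher in 3 of 3 libraries, although in replicate 1 the germ cell gene Calr3 (5.03 FPKM) was above Ovch2 (4.50 FPKM). Without Ace and Tpst2, which germ cells also transcribe, the difference was 3.67.

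Adam3 (chromosome 8 from 24677232 to 24726377) stood at 0.459, 1.71 and 0.748 FPKM, or about 17.9, 55.0 and 20.9 fragments at the estimated depth. Replicate 2 was the highest library and replicate 1 the lowest. An unspliced GENCODE entry, Gm45528, overlaps its exons on the other strand. Adam2 (chromosome 14 from 66027322 to 66077851), whose product pairs with ADAM1 proteins on sperm and is needed for ADAM3 to reach the sperm surface, was listed at 0 in replicate 1 and stood at 0.432 and 0.304 FPKM in replicates 2 and 3, about 12.9 and 7.88 fragments. If the 0 is a true count, a level of up to 0.0828 FPKM, the worth of 3 fragments, would be allowed, and both other libraries were above that. Adam2 minus Adam3 was -0.55, -0.92 and -0.42 on the log2(FPKM + 1) scale. Floors and fragment numbers cover counting error only and rest on the longest annotated transcript.

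The germ cell chaperones did not share a pattern. Clgn (chromosome 8 from 83389790 to 83428552), a calnexin relative that folds sperm membrane proteins, stood at 0.123, 1.20 and 0.430 FPKM, about 6.84, 55.0 and 17.1 fragments. Pdilt (chromosome 7 from 119486586 to 119529036), a disulfide isomerase relative that works with calmegin, stood at 0.0331, 0.202 and 0.0462 FPKM, about 1.01, 5.07 and 1.01 fragments. Both were highest in replicate 2 and lowest in replicate 1, though a gene read by single fragments cannot be ordered between replicates 1 and 3 at this depth. Exons of Acsm5 on the other strand, at 0.196, 0.0341 and 0.0390 FPKM, overlap those of Pdilt. Calr3 (chromosome 8 from 72424176 to 72443819), a calreticulin relative needed for ADAM3, stood at 5.03, 3.43 and 3.36 FPKM, about 127, 71.0 and 60.3 fragments. Calr3 was the most abundant germ cell member in every library and the only one of the 6 that was highest in replicate 1, 1.47-fold and 1.50-fold above the others.

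Prss37 (chromosome 6 from 40514820 to 40519535) encodes a protease-like protein of germ cells. It was listed at 0 in replicate 1 and stood at 0.186 and 0.426 FPKM in replicates 2 and 3, about 2.28 and 4.54 fragments. A count of 0 in replicate 1 would allow up to 0.201 FPKM, so a difference from replicate 2 was not detectable at this depth. Over all genes 2.84% of genes were listed at 0 in replicate 1 and above 0 in both others, as Adam2 and Prss37 were.

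Somatic relatives of the chaperones were far more abundant. Calr stood at 1657, 1633 and 1735 FPKM, or 329-fold, 477-fold and 517-fold above Calr3. Canx (calnexin) stood at 153, 135 and 130 FPKM beside Clgn. P4hb (protein disulfide isomerase) stood at 516, 488 and 550 FPKM beside Pdilt. On the log2(FPKM + 1) scale the differences were 8.42 ± 0.28 for Calr over Calr3, 6.52 ± 0.57 for Canx over Clgn and 8.89 ± 0.20 for P4hb over Pdilt (SD, n = 3). The direction was the same in all 3 libraries for each of the 5 pairs reported, and each gave p = 0.25 by the exact sign-flip test and 0.25 after Benjamini-Hochberg adjustment over the 5 pairs. Among the 5 somatic folding genes, Calr was highest and Canx lowest. None was set apart in replicate 1, where 4.07% of genes were so below and 1.29% above. Replicate 1 minus the mean of the others had a median of -0.02 over the 5 genes on the log2(FPKM + 1) scale.

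**Figure D3:**
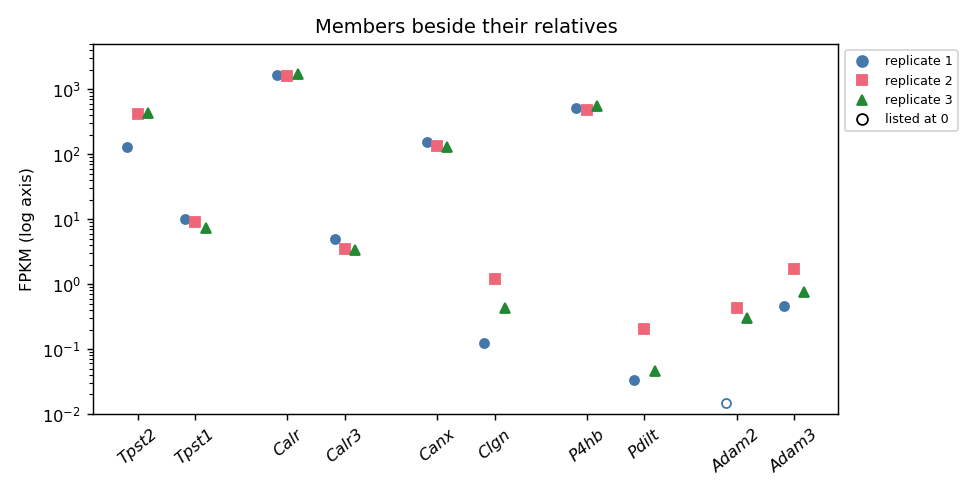
FPKM on a log axis of each member and its relative in 3 libraries (points), with an open point at the base where a value is listed at 0. The somatic genes Calr, Canx and P4hb sit near the same level in all libraries, above 100 FPKM, while Calr3, Clgn and Pdilt lie below 10 FPKM.

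Markers of germ cells were set beside these values. Of 16 listed genes, 14 were lowest in replicate 1, against 29.6% of all genes. Of the 13 that averaged 1 FPKM or more, 11 were set apart below there, against 4.07% of such genes. In replicate 1 alone 10 of the 16 were listed at 0, against 2.84% of all genes. These 10 were Prm1, Prm2, Tnp2, Akap4, Odf1, Smcp, Ldhc, Acr, Pgk2 and Crisp2. The list summed to 5.58, 205 and 271 FPKM. Prm2, a protamine gene that packs sperm DNA and had the highest mean, was listed at 0 and stood at 73.4 and 117 FPKM in replicates 2 and 3. Tnp1, which encodes a nuclear protein of spermatids (0.301, 10.3 and 21.0 FPKM), and Gapdhs, the sperm form of a glycolytic enzyme gene (0.303, 5.66 and 6.07 FPKM), were read in every library and set apart below in replicate 1. Acr, the acrosin gene, had the lowest mean, with 0.543 and 0.229 FPKM in replicates 2 and 3. Izumo1, the gene of the sperm protein that joins the egg membrane (1.84, 1.03 and 0.556 FPKM), and Zpbp (0.846, 0.696 and 0.515 FPKM) were highest in replicate 1.

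Set against these markers, 5 of the 6 germ cell members had their lowest listed value in replicate 1. The share of all genes was 29.6%, with ties counted as not lowest. The count of 5 is one of listed values. The fragment numbers could not order Pdilt between replicates 1 and 3 or Prss37 between replicates 1 and 2. Those of Adam3 in replicates 1 and 3 were 17.9 and 20.9. Within the other libraries the directions differed. The marker sum was higher in replicate 3, but the marker median was higher in replicate 2, at 2.71 against 2.38 on the log2(FPKM + 1) scale. Adam2, Adam3, Clgn and Pdilt were higher in replicate 2, and Prss37 was higher in replicate 3. Calr3, like Izumo1 and Zpbp, was highest where the marker sum was lowest. The members' own sum was 5.65, 7.16 and 5.31 FPKM, of which Calr3 made up 89.1%, 47.8% and 63.2%. How much of each member's RNA came from sperm was not tested.

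**Figure D4:**
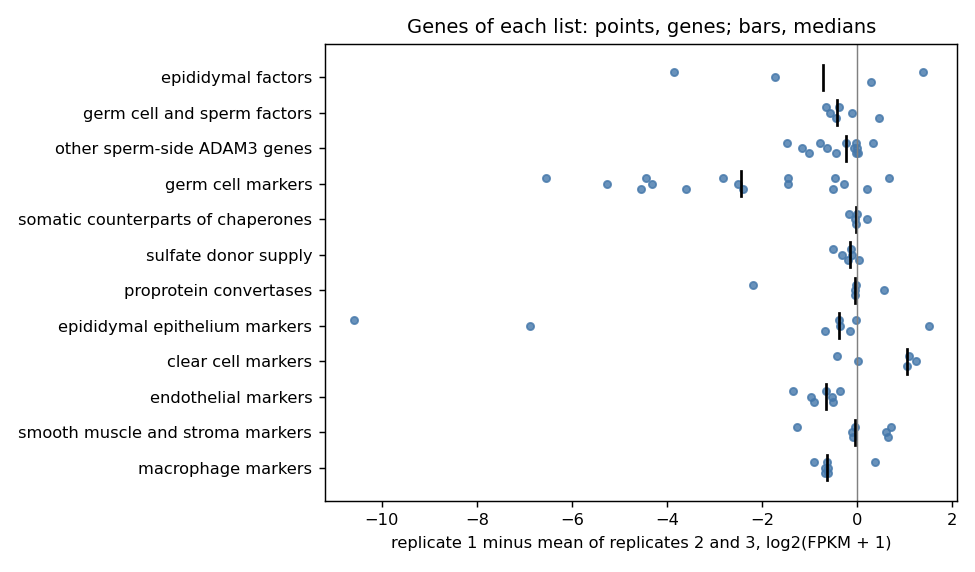
Replicate 1 minus the mean of replicates 2 and 3 on the log2(FPKM + 1) scale for each gene (points) of 12 lists, with list medians (bars). Germ cell markers reach furthest below 0 by median, at -2.45, clear cell markers lie above 0 at 1.06, and the 4 epididymal factors spread to both sides.

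Other sperm genes whose loss disturbs ADAM3 or that pair with it were at a similar level. Of 13 listed, 8 were lowest in replicate 1, against 29.6% of all genes. Of the 13, 3 averaged 1 FPKM or more, and Tex101 was listed at 0 in every library. Adam1a, which encodes an ADAM2 partner, was highest at 2.76, 1.83 and 2.19 FPKM. Adam6a was lowest of those read, with 0.0338 FPKM in replicate 2 and 0 listed in the others. Cmtm2a, a gene of the chemokine-like factor family, was listed at 0 in replicate 1 and stood at 1.96 and 1.63 FPKM in the others. It was the only gene of the 3 set apart in replicate 1, where 4.07% of genes were set apart below. Lypd4 and Prss55 were also listed at 0 in replicate 1 alone. With Cmtm2a these made 3 of the 13, against 2.84% of all genes. Adam6b was listed at 0 in replicate 3.

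The lumicrine pathway, in which NELL2 from the testis activates the receptor ROS1 on the duct lining and so switches on Ovch2, was covered by 3 genes with a row. Rnase10, whose loss in mice also disturbs ADAM3 processing, stood at 2.58, 3077 and 2708 FPKM. Replicate 1 minus the mean of the others was -9.66 for Rnase10 and -3.86 for Ovch2 on the log2(FPKM + 1) scale. Ros1 stood at 21.1, 36.6 and 34.8 FPKM, lowest in replicate 1 but within 2-fold of the others. Nell2 stood at 0.151 and 0.131 FPKM and was listed at 0 in replicate 3.

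Proprotein convertases cut secreted and membrane precursors after basic residues. Of the 5 listed genes, 4 averaged 1 FPKM or more. Pcsk5 alone of these was set apart below in replicate 1, against 4.07% of genes. Pcsk5 stood at 5.47, 33.1 and 24.6 FPKM, the direction of Ovch2. Furin was highest at 50.3, 33.8 and 33.6 FPKM, with replicate 1 above the others. Pcsk6 was lowest at 0.265, 0.364 and 0.220 FPKM. Pcsk4, a convertase of male germ cells in mice, stood at 2.68, 2.63 and 2.94 FPKM and was nearly level. The source of its RNA was not tested.

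Of the remaining markers, 6 of 7 macrophage genes were lowest in replicate 1, against 29.6% of all genes, with sums of 104, 145 and 153 FPKM. C1qa, a complement gene, was highest at 37.6, 54.1 and 61.6 FPKM, and Itgam, an integrin gene, was lowest at 0.826, 2.33 and 2.49 FPKM. The 7 smooth muscle and stroma genes summed to 725, 578 and 525 FPKM. Pdgfra, a fibroblast receptor gene, stood at 15.3, 43.4 and 32.9 FPKM. It alone of the 7 was set apart below in replicate 1, against 4.07% of genes. Acta2, a smooth muscle actin gene, was highest at 306, 193 and 178 FPKM, and Col1a1, a collagen gene, was lowest at 25.5, 30.01 and 23.2 FPKM.

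Among the 8 epididymal epithelium markers, Lcn8, a lipocalin gene, was set apart below in replicate 1 at 8.58, 14252 and 15342 FPKM. Crisp1, whose product binds to sperm in the duct, had 2.07, 758 and 171 FPKM and was set apart below in replicate 1 and above in replicate 2. Lcn5, another lipocalin gene, was set apart below in replicate 2 at 21673, 4290 and 13581 FPKM. Replicate 1 was therefore not the only library to depart from the others in these markers. Of all genes averaging 1 FPKM or more, 4.07% were set apart below in replicate 1. In replicate 2, 0.757% were set apart below and 0.237% above. Gpx5, a secreted peroxidase gene, had the highest mean at 25918, 35882 and 32210 FPKM, and Cdh1, the E-cadherin gene, the lowest at 41.8, 56.8 and 51.8 FPKM. The part of any of these cells in the level of Ovch2, Tpst2 or Ace was not tested.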

How the data were processed

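Per the labels' protocols, TRIzol was used for the RNA and a stranded TruSeq mRNA kit for the libraries. The authors deposited normalized FPKM values per gene and library, per the file headers. TopHat2 2.1.1, Cufflinks 2.2.1 and mm10 are named in the submitters' processing notes. Annotation, strand setting and scaling were not given in the sources used here. Each value depends on the transcript length assumed, and an exact 0 may stand for a failed estimate.

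The log2(FPKM + 1) scale was used. FPKM is not a count and there is 1 group, so neither a count model nor a group test was run. Differences between genes were tested with exact sign-flip tests over 3 libraries. Depth was estimated from the step between low values of 2128 genes with 1 annotated transcript of 1500 to 6000 bases. Between 84.7% and 85.9% of the low values per library lay within 0.2 fragments of a whole number, against 40% if spread evenly, and the step was fitted to the same values. The procedures were tested on simulated data. Of 93 list entries, 92 had a row, and the remaining gene was not analysed here. Gene IDs were matched to RefSeq of GRCm38.p6, and transcripts came from GENCODE M21.

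The members and lists were chosen with earlier results of these data known. Genes named were all members, the relatives in each pair, and of each list the highest, the lowest, those listed at 0 in some libraries and those set apart from the other libraries by 2-fold. A further planned pair is not reported here. Izumo1, Zpbp, Pcsk4, Atp6v0d2 and Bpnt2 were added after their values were seen. Alternatives were leaving out each replicate, 2 other scalings, a pseudocount of 0.1 FPKM, other filters, and leaving out Ace and Tpst2. The software was Python 3.11.15 with pandas 2.3.3, numpy 2.4.6 and matplotlib 3.10.9.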

Additional observations from a re-analysis of the deposited data

How the results depend on the processing

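The epididymal minus germ cell difference stayed above 0 under all 8 alternatives on the log2 scale. It lay between 3.67 without Ace and Tpst2 and 7.55 with a pseudocount of 0.1 FPKM. With only members averaging 1 FPKM or more it was 4.05, and Calr3 was then the only germ cell member left. Leaving out a replicate could not turn a direction that all 3 libraries shared. The 5 differences between relatives kept their direction under all 6 alternatives run on each. That was fixed in advance, since the scalings and the pseudocount also keep the order of paired genes within a library. The widest range among those 5 was that of P4hb over Pdilt, from 8.82 to 11.49, with the highest value at that pseudocount, which also moved Adam2 minus Adam3 from -0.63 to -1.77. No test passed 0.05 under any setting, since 3 libraries cannot go below 0.25 and 2 cannot go below 0.5. The count of members at least 2-fold from both other libraries was 3, and 0 to 3 when a replicate was left out. It was 0 without replicate 1, where Ovch2, Tpst2 and Ace no longer stood apart. A pseudocount of 0.1 FPKM and no filter on the mean together made a setting chosen after seeing the data. Under it the count was 8, since Adam2, Adam3, Clgn, Pdilt and Prss37 also stood apart. Of these, Adam3, Clgn and Pdilt stood apart above in replicate 2, and Adam2, Clgn and Prss37 below in replicate 1. Other scalings moved no library by over 0.1 on the log2 scale, and changed no member's mean by as much as its spread. Without replicate 2 the mean fell from 0.0936 to 0.0396 FPKM for Pdilt, from 0.586 to 0.277 FPKM for Clgn, from 0.245 to 0.152 FPKM for Adam2 and from 0.973 to 0.604 FPKM for Adam3. Without replicate 3 that of Prss37 fell from 0.204 to 0.0930 FPKM, and without replicate 1 that of Ace fell from 269 to 177 FPKM. No paired analysis was possible because the labels give 1 group. Values under 1 FPKM rest on few fragments, and differences between them are limited by depth.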
